A study of Homo sapiens with 12 samples.

Results

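Panc1 is an established cell line from a human pancreatic ductal adenocarcinoma, and the comparison described here sets Panc1 cells with a knockout of ASAP2 against wild-type Panc1 cells. It rests on 6 of the 12 RNA-seq libraries of the study, 3 labelled wild-type and 3 labelled ASAP2 knockout, with no drug treatment or time point given for either group. The other 6 libraries, from MiaPaCa2, a second pancreatic cancer line, in the same pair of genotypes, entered the fit of the spread and serve as the reference for the difference between the lines. Values are FPKM, fragment numbers normalised to transcript length and to the mapped fragments of the library. Of 21620 genes listed in any of the 6 libraries, the 12522 whose average reached 1 FPKM were tested. The sources used here do not give how the knockout was made, whether its cells descend from 1 clone, or whether the libraries of a group come from separate cultures. P-values therefore measure only the spread between these libraries, and the loss of ASAP2 and any difference between the cells carried along with it cannot be told apart.

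The targeted gene checks the labels. ASAP2 (chromosome 2, 9346894 to 9545812 on the forward strand in hg19, the build of all gene positions here) read 38.6, 37.5 and 34.6 FPKM in the wild-type and 14.2, 14.5 and 12.7 FPKM in the knockout libraries (log2 change -1.36 ± 0.07, adjusted p = 1.1e-08). It was lower in every knockout library, and its transcript remained at more than 10 FPKM. Such a level counts transcripts of any sequence and says nothing on the protein.

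ASAP2 is a GTPase-activating protein that switches off Arf proteins, small GTPases that recruit coats to membranes and remodel actin at the cell edge and at focal adhesions. Panc1 cells are known for a mixed phenotype, with keratins of ductal epithelium beside mesenchymal genes such as vimentin, and for a strong actin and adhesion programme. Among the groups described below, the integrated stress response is the programme that the transcription factor ATF4 runs when amino acids are short or unfolded proteins accumulate: it raises amino acid synthesis, uptake and tRNA charging. Contractile genes of the smooth muscle type answer to serum response factor, whose coactivators sense the pool of free actin, and genes of cell division are repressed together in resting cells through elements in their promoters.

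Markers of the ductal line were present and those of most other cell types were not. All 5 ductal epithelium markers reached 1 FPKM, with a summed level of 1215 to 1252 FPKM in wild-type and 1113 to 1228 FPKM in knockout libraries. Of 5 mesenchymal markers, vimentin (VIM) rose from 2255 to 2706 FPKM, though it read -0.17 on the log2 scale under quantile normalization, and N-cadherin (CDH2) rose too. ZEB1 read 7.82 FPKM on average in wild-type and 7.4 FPKM in knockout cells and did not pass the test, and the averages went from 0.739 to 0.175 FPKM for SNAI2 and from 0.206 to 0.0713 FPKM for FN1, too low to be tested. Of 10 immune, 5 endothelial, 6 acinar and 5 endocrine markers only CD68, a lysosomal protein that many cell types make, reached an average of 1 FPKM, and LYZ read 1.06 FPKM in wild-type replicate 1 and at most 0.182 FPKM elsewhere. Markers with no entry in a library were taken as 0. The summed endothelial markers were at most 0.048 FPKM and the summed acinar markers at most 0.099 FPKM in any library. Of 5 fibroblast markers PDGFRA alone was above 1 FPKM, at 10.7 to 11.6 FPKM in wild-type and 1.37 to 1.72 FPKM in knockout libraries. Libraries listed 18848 to 19105 genes, correlated at 0.9945 to 0.9972 within a group and at 0.9628 to 0.9706 between the groups (Pearson's r across genes, which are not independent), and no library stood apart. Read depth is unknown, since the files hold no counts. In bulk RNA, fewer cells of a state and less RNA per cell cannot be told apart.

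A gene was called higher or lower when its limma p-value, adjusted over all genes by the Benjamini-Hochberg method, was below 0.05 with the same sign in the values as deposited and after rescaling the libraries by their median ratio. The rescaling moved every gene up, by 0.04 to 0.14 on the log2 scale, and took the median log2 change of all genes from -0.11 to 0.00. By this double rule 2814 genes were higher (22.5% of those tested) and 3869 lower (30.9%) in knockout libraries. Among them 195 were at least 2-fold higher (1.56%) and 167 at least 2-fold lower (1.33%), together 2.89% of the genes. These shares are the background against which the counts of each gene list are to be read. For 72.1% of all genes the wild-type and knockout libraries did not overlap. Lack of overlap was also a condition for naming the top genes and the called list members, so for these it adds nothing to the call. Log2 changes below are of FPKM + 1 in the deposited values, which understates the change of low genes, levels are means ± SD of 3 libraries, log2 changes are given ± SE, and "rose" and "fell" are used of called genes.

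The changes followed the base composition of the genes. Genes were divided by GC content into 5 classes of equal size. In the class with the lowest GC content (at most 40.6%) the median log2 change was -0.35, with 5.66% of the genes higher and 58.6% lower, and it went through -0.20, -0.07 and 0.00 to 0.07 in the class with the highest GC content, where 38.6% were higher and 14.6% lower. In MiaPaCa2 the medians of the same classes ran from 0.01 to -0.04. Library by library, the value of the highest class minus that of the lowest, each against the gene's mean over the line, was -0.23, -0.253 and -0.139 in the wild-type and 0.119, 0.222 and 0.288 in the knockout libraries of Panc1, so the groups did not overlap. In MiaPaCa2 it lay between -0.111 and 0.091. Its part in the results was not tested. Medians called corrected below come from values adjusted in every library for GC content and transcript length. Chromosomes differed as well: on chromosome 7 the median was -0.38 and 333 of 555 genes were lower, on chromosome 5 it was -0.29 and 52.5% of 543 were lower, on X it was -0.30, and on 17 and 20 it was 0.04. On chromosome 2, which holds ASAP2, it was -0.11, with 23.8% of 744 genes higher and 30.8% lower. TRIB2, SMC6, GEN1 and RPS7, described below as lower, lie on chromosome 2, as does IGFBP2, which rose. Whether genes near ASAP2 changed together was not tested.

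**Figure D1:**
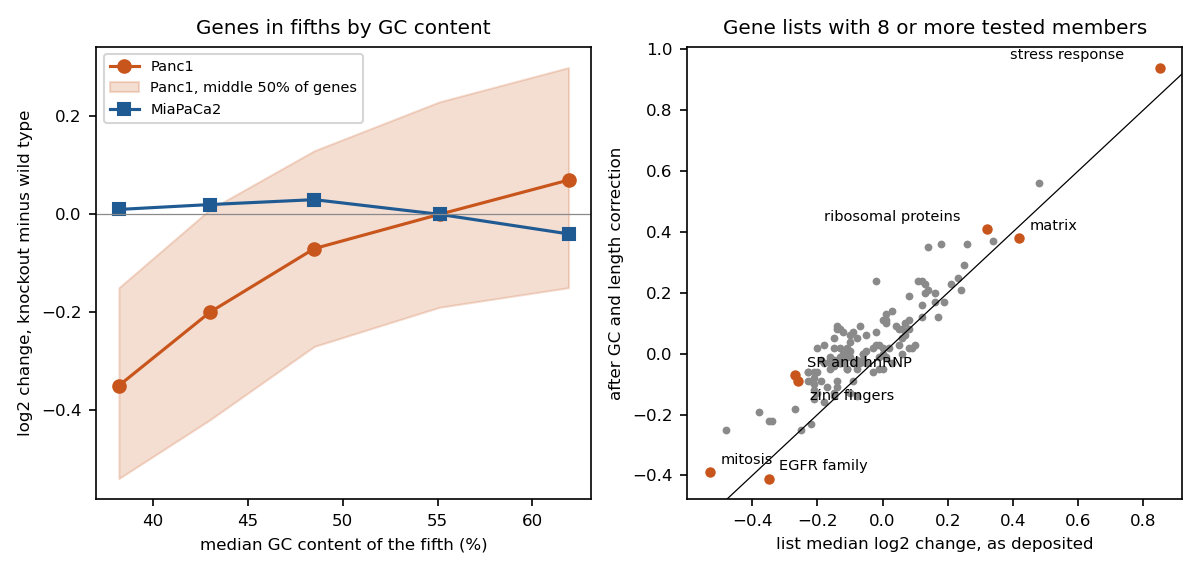
Left, median log2 change of FPKM + 1 (knockout minus wild type) of genes in 5 classes of GC content, against the median GC content of the class in percent, for Panc1 (circles, band for the middle 50% of genes) and MiaPaCa2 (squares); the Panc1 medians go from -0.35 to 0.07. Right, each point is 1 gene list with at least 8 tested members, with its median log2 change in Panc1 as deposited on the x axis and after the GC and length correction on the y axis, and the line marks equal values; the stress response list has medians of 0.85 and 0.94 and the mitosis list of -0.53 and -0.39. For all genes the medians were -0.11 and -0.01.

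Of the genes around ASAP2 in the Arf cycle few moved far. On the log2(FPKM + 1) scale the GTPase ARL14 and ASAP2 itself fell at least 2-fold, and with a pseudocount of 0.1 CYTH4 (-1.35) and ASAP3 (1.04) passed 2-fold as well. Among Arf GTPases and Arl proteins 4 rose and 10 fell of 24 tested (median -0.20), among the Arf GTPase-activating proteins 5 rose and 7 fell of 19 tested (median -0.03), and among the Arf exchange factors, which load Arf with GTP, 1 rose and 5 fell of 11 tested (median -0.27, -0.18 after the GC and length correction). ARF1, the main Golgi Arf, read 218, 216 and 224 FPKM in the wild-type and 206, 206 and 212 FPKM in the knockout libraries, which did not pass the test. ARL14, an Arf-like GTPase, read 2.67, 3.52 and 2.11 FPKM in the wild-type and 0.397, 0.397 and 0.39 FPKM in the knockout libraries, so it fell to below 0.5 FPKM (log2 change -1.42 ± 0.1, adjusted p = 2.0e-07). CYTH4, an exchange factor of the cytohesin family, read 3.77, 3.76 and 4.56 FPKM in the wild-type and 1.45, 1.57 and 1.53 FPKM in the knockout libraries, and the groups did not overlap (log2 change -1.0 ± 0.06, adjusted p = 7.6e-08). Its relative CYTH2 fell from 16.6 to 11.3 FPKM and the Golgi exchange factor genes ARFGEF1 and ARFGEF2 fell by 0.57 and 0.28. Against these, ASAP3, the third ASAP protein, rose from 2.1 ± 0.0722 to 4.43 ± 0.364 FPKM (log2 change 0.81 ± 0.08, adjusted p = 3.8e-06). ASAP1, the closest relative of ASAP2, went from 41.9 to 37.3 FPKM, called in the deposited values but not after rescaling. SMAP2, an Arf GTPase-activating protein of endosomal clathrin coats, fell from 39.6 to 22.7 FPKM.

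Insulin-like growth factor (IGF) binding proteins, secreted proteins that hold IGF1 and IGF2 outside the cell, changed in opposite directions member by member. Of 18 tested genes of this family and its regulators 7 rose and 6 fell, and 3 rose and 5 fell at least 2-fold, while the median was only 0.06. IGFBP7, which is kept in the vessel wall and matrix and binds IGF weakly, read 4.11, 4.22 and 4.96 FPKM in the wild-type and 28.4, 25.1 and 28.8 FPKM in the knockout libraries (log2 change 2.39 ± 0.08, adjusted p = 1.7e-10; chromosome 4, 57896939 to 57976551 on the reverse strand). IGFBP2, another secreted binder, rose from 15.7 ± 1.57 to 43 ± 2.7 FPKM (log2 change 1.4 ± 0.1, adjusted p = 1.9e-07). In the other direction, IGFBP1 read 5.37, 5.39 and 5.39 FPKM in the wild-type and 0.463, 0.434 and 0.492 FPKM in the knockout libraries, all below 0.5 FPKM in the knockout (log2 change -2.13 ± 0.05, adjusted p = 8.5e-12; chromosome 7, 45927959 to 45933259 on the forward strand). IGFBP3, its neighbour on chromosome 7, fell by 2.48, and IGFBP6, which prefers IGF2, fell from 9.59 ± 1.46 to 2.0 ± 0.408 FPKM (log2 change -1.82 ± 0.15, adjusted p = 6.3e-07). IGFBP4, the most abundant member, read 645 FPKM on average in wild-type and 702 FPKM in knockout cells and did not pass the test (log2 change 0.12 ± 0.07, adjusted p = 0.154). The adaptor GRB10, which restrains insulin and IGF receptors and also lies on chromosome 7, fell from 71.8 to 28.9 FPKM (log2 change -1.28). HTRA1, a protease that cuts IGF-binding proteins, fell from 3.83 to 1.04 FPKM.

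The ligand and the receptor rose. IGF2 read 10.9, 11.3 and 11.5 FPKM in the wild-type and 30.6, 31.8 and 34.1 FPKM in the knockout libraries (log2 change 1.44 ± 0.1, adjusted p = 1.5e-07). The receptor gene IGF1R rose from 10.7 ± 0.26 to 19.5 ± 0.29 FPKM (log2 change 0.81 ± 0.05, adjusted p = 3.5e-08). H19, the noncoding RNA that neighbours IGF2 in an imprinted pair, rose from 5.21 ± 0.072 to 17.4 ± 1.27 FPKM (log2 change 1.57 ± 0.11, adjusted p = 1.3e-07). MIR675, which is cut from H19, read 1.66, 2.54 and 3.93 FPKM in the wild-type and 11.8, 14.8 and 14.4 FPKM in the knockout libraries, and its level is uncertain because it overlaps H19. IGFBPL1, a secreted protein named for its likeness to the family, rose from 1.42 ± 0.207 to 9.4 ± 0.343 FPKM. In MiaPaCa2 IGF1R averaged 4.9 and 5.18 FPKM in wild-type and knockout cells, a change of 0.07 (difference between the lines 0.74, adjusted p = 2.7e-06). IGFBP7 averaged 0.315 and 0.318 FPKM there and IGFBP1 0.0293 and 0.00467 FPKM, and IGFBP3 had no value above 0, so a fall of IGFBP1 or IGFBP3 could not be seen in that line.

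Other genes among the 20 that gained most were of several functions. SCD5, a stearoyl-CoA desaturase that makes monounsaturated fatty acids, read 1.99, 2.2 and 1.71 FPKM in the wild-type and 13, 12.6 and 13.9 FPKM in the knockout libraries (log2 change 2.26 ± 0.07, adjusted p = 1.0e-10). CHST11, which puts sulfate on chondroitin chains, read 1.51, 1.33 and 1.54 FPKM in the wild-type and 10.9, 10.3 and 9.87 FPKM in the knockout libraries (log2 change 2.21 ± 0.05, adjusted p = 2.3e-11). The groups did not overlap for either, which was a condition of their choice. MFGE8, a secreted protein that bridges integrins and the lipids of dying cells, rose from 62.8 ± 2.88 to 249.8 ± 8.49 FPKM (log2 change 1.98). The secreted olfactomedin gene OLFM2 rose from 1.21 ± 0.125 to 7.57 ± 0.976 FPKM (log2 change 1.95).

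Among the 20 that lost most, TRIB2, a pseudokinase that directs proteins to degradation, read 10.9, 11.5 and 9.84 FPKM in the wild-type and 1.46, 1.67 and 1.92 FPKM in the knockout libraries (log2 change -2.13 ± 0.08, adjusted p = 5.6e-10; chromosome 2, 12857036 to 12882860 on the forward strand). LGR4, a receptor for R-spondins that keeps Wnt receptors at the membrane, read 16.7, 17.9 and 16.7 FPKM in the wild-type and 4.81, 4.1 and 3.88 FPKM in the knockout libraries (log2 change -1.79 ± 0.08, adjusted p = 2.7e-09). For both, the highest knockout value was below the lowest wild-type value, again a condition of their choice. SPTSSB, a small subunit of the enzyme that starts sphingolipid synthesis, fell from 32.8 ± 0.81 to 8.96 ± 0.499 FPKM (log2 change -1.76). The other losses fall in unrelated functions. AK5, an adenylate kinase, fell from 6.44 ± 0.341 to 1.25 ± 0.0115 FPKM (log2 change -1.72). RAI14, a protein of actin bundles, fell from 18.5 ± 0.582 to 4.92 ± 0.604 FPKM (log2 change -1.72). LINC00261, a long noncoding RNA beside the endoderm factor gene FOXA2, fell from 8.96 ± 0.179 to 2.29 ± 0.113 FPKM (log2 change -1.6). MIR1-1HG-AS1, named as antisense to a microRNA host gene, fell from 12.1 to 3.2 FPKM. MIR198, which lies within the transcript of the secreted protein gene FSTL1, fell from 6.26 to 0.842 FPKM, and FSTL1 itself fell from 3.58 to 0.715 FPKM (log2 change -1.42), so reads of the overlapping features cannot be told apart.

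The integrated stress response was the list with the largest shift. Of its members 36 rose and 3 fell of 47 tested, 19 of them at least 2-fold upward. The median log2 change was 0.85 against -0.11 for all genes. It was 0.94 against -0.01 after the GC and length correction, and 0.85 without chromosomes 2, 6 and 7. Among the signalling members, SESN2, a leucine-sensing inhibitor of the growth kinase mTORC1, read 5.65, 5.36 and 6.2 FPKM in the wild-type and 29, 27.9 and 18.9 FPKM in the knockout libraries (log2 change 1.94 ± 0.14, adjusted p = 1.7e-07; chromosome 1, 28586029 to 28609002 on the forward strand). Every knockout value lay above every wild-type value. ATF4 itself rose from 110.1 ± 0.578 to 243 ± 24.1 FPKM (log2 change 1.13 ± 0.08, adjusted p = 1.5e-07). DDIT4, another inhibitor of mTORC1, rose from 18.3 ± 0.512 to 64 ± 8.48 FPKM (log2 change 1.75 ± 0.15, adjusted p = 9.9e-07). EIF4EBP1, the repressor of cap-dependent translation that mTORC1 inactivates, rose from 33.6 ± 1.83 to 71.6 ± 3.61 FPKM (log2 change 1.07). The transcription factor genes CEBPB, DDIT3 and JDP2 rose by 1.33, 0.76 and 1.49, whereas ATF5, whose mRNA is translated under the same control as that of ATF4, fell by 0.45. The gene of GDF15, a stress-induced secreted factor, rose from 13 ± 0.768 to 35.6 ± 7.89 FPKM (log2 change 1.37).

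CHAC1 encodes an enzyme that degrades glutathione and rose by 2.59. It had in its promoter a match to the element that ATF4 and its CEBP partners bind, TGATGNAAN on either strand. The 220 bases before its start are printed because of this match, in capitals, which begins 210 bases before the start and reads on the strand opposite to the gene (RefSeq, GRCh38.p14).
CHAC1 chr15:40953251-40953470, forward strand: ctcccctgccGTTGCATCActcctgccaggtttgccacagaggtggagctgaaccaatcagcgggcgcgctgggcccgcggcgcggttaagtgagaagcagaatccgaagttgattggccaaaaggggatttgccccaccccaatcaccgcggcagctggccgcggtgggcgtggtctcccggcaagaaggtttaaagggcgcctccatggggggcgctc
Of 6770 tested genes with a single start in the promoter table, 71 held the element within 250 bases before the start (1.05%), and 2 of 25 stress response genes did, CHAC1 and HERPUD1. A match is a description of the letters and shows no binding.

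Several enzymes on the route from glycolysis to serine and one-carbon units rose. In the wider list of amino acid synthesis and one-carbon enzymes 20 rose and 11 fell of 46 tested, 6 at least 2-fold up and 1 at least 2-fold down, with a median of 0.06. PHGDH, the first enzyme of serine synthesis, read 10.8, 10.7 and 10.9 FPKM in the wild-type and 31.3, 31.4 and 30.3 FPKM in the knockout libraries (log2 change 1.44 ± 0.06, adjusted p = 2.0e-09). The next enzyme gene PSAT1 rose from 41.3 ± 0.29 to 88.1 ± 8.52 FPKM (log2 change 1.07 ± 0.07, adjusted p = 8.8e-08). The mitochondrial folate enzyme genes SHMT2, MTHFD2 and MTHFD1L rose by 0.55, 1.11 and 0.74. Of these 5 genes all but PHGDH were named after their values were seen. Their agreement is therefore no evidence on the route as a whole. ASNS, which makes asparagine, rose from 37.5 ± 1.69 to 111 ± 13.1 FPKM (log2 change 1.53 ± 0.1, adjusted p = 1.1e-07). PYCR1, of proline synthesis, rose from 92.2 ± 1.19 to 171 ± 0.815 FPKM (log2 change 0.89). ASS1, the urea cycle enzyme that lets cells make arginine, read 2.85, 1.94 and 1.94 FPKM in the wild-type and 9.73, 10.1 and 10.8 FPKM in the knockout libraries (log2 change 1.8 ± 0.11, adjusted p = 3.9e-08). Its groups did not overlap. PCK2, the mitochondrial enzyme that turns oxaloacetate into phosphoenolpyruvate, read 7.12, 6.74 and 7.18 FPKM in the wild-type and 32.2, 31.7 and 24.8 FPKM in the knockout libraries (log2 change 1.92 ± 0.1, adjusted p = 8.8e-09). Members that fell were fewer. Glutamine synthetase GLUL read 2.84, 2.9 and 3.2 FPKM in the wild-type and 0.206, 0.23 and 0.21 FPKM in the knockout libraries (log2 change -1.71 ± 0.05, adjusted p = 7.7e-11; chromosome 1, 182347233 to 182361341 on the reverse strand). The polyamine enzyme genes ODC1 and SMS fell by 0.84 and 0.61, and MAT2A, which makes the methyl donor S-adenosylmethionine, fell by 0.75.

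Some genes for the uptake and charging of amino acids rose as well. SLC7A5, the light chain of the large neutral amino acid exchanger, read 72, 73.3 and 76 FPKM in the wild-type and 228, 232 and 203 FPKM in the knockout libraries (log2 change 1.57 ± 0.06, adjusted p = 1.1e-09). Its heavy chain gene SLC3A2 rose from 52.2 ± 0.572 to 95 ± 5.6 FPKM (log2 change 0.85 ± 0.06, adjusted p = 2.6e-07). The alanine, serine and cysteine carrier gene SLC1A4 rose from 2.85 to 11 FPKM (log2 change 1.63). The cystine carrier gene SLC7A11 rose from 1.15 to 2.9 FPKM (log2 change 0.85). The 4 carriers named here rose, while transporters as a whole were mixed: of all amino acid transporters 9 rose and 6 fell of 25 tested. Of the cytosolic aminoacyl-tRNA synthetases, the enzymes that load amino acids onto tRNA, 12 rose and 4 fell of 23 tested (median 0.18, 0.36 after the GC and length correction). AARS, for alanine, read 60.2, 59.3 and 59.6 FPKM in the wild-type and 128, 126 and 119.6 FPKM in the knockout libraries (log2 change 1.05 ± 0.05, adjusted p = 2.9e-09). SARS, for serine, rose from 56.7 to 115 FPKM (log2 change 1.0). Their mitochondrial counterparts showed no such shift, with 3 higher and 4 lower of 17 and a median of -0.09; the difference between these lists was not tested.

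Chaperone genes as a group did not shift upward. Of the ER chaperones and unfolded protein response genes 11 rose and 20 fell of 51 tested (median -0.15, -0.03 after the GC and length correction), shares near the background. Without chromosomes 2, 6 and 7, 10 rose and 13 fell of 42 (median -0.07). HSP90B1, the ER form of HSP90, read 259, 261 and 218 FPKM in the wild-type and 169, 154 and 158 FPKM in the knockout libraries (log2 change -0.61 ± 0.11, adjusted p = 3.2e-04). The disulfide isomerase genes PDIA4 and PDIA6 fell by 0.51 and 0.59, and DNAJB9, a cochaperone induced by XBP1 in ER stress, fell by 0.51, a call lost after that correction. HERPUD1, of ER-associated degradation, and XBP1 rose by 0.82 and 0.50, and calreticulin (CALR) read 498 FPKM on average in wild-type and 521 FPKM in knockout cells without passing the test. Among cytosolic and mitochondrial heat shock chaperones 5 rose and 22 fell of 55 tested (median -0.21, -0.06 corrected). HSPA8, the constitutive HSP70, read 684, 678 and 710.3 FPKM in the wild-type and 401, 421 and 487 FPKM in the knockout libraries (log2 change -0.67 ± 0.07, adjusted p = 5.2e-06). HSPH1 fell from 23.7 to 13.2 FPKM (log2 change -0.8).

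**Figure D2:**
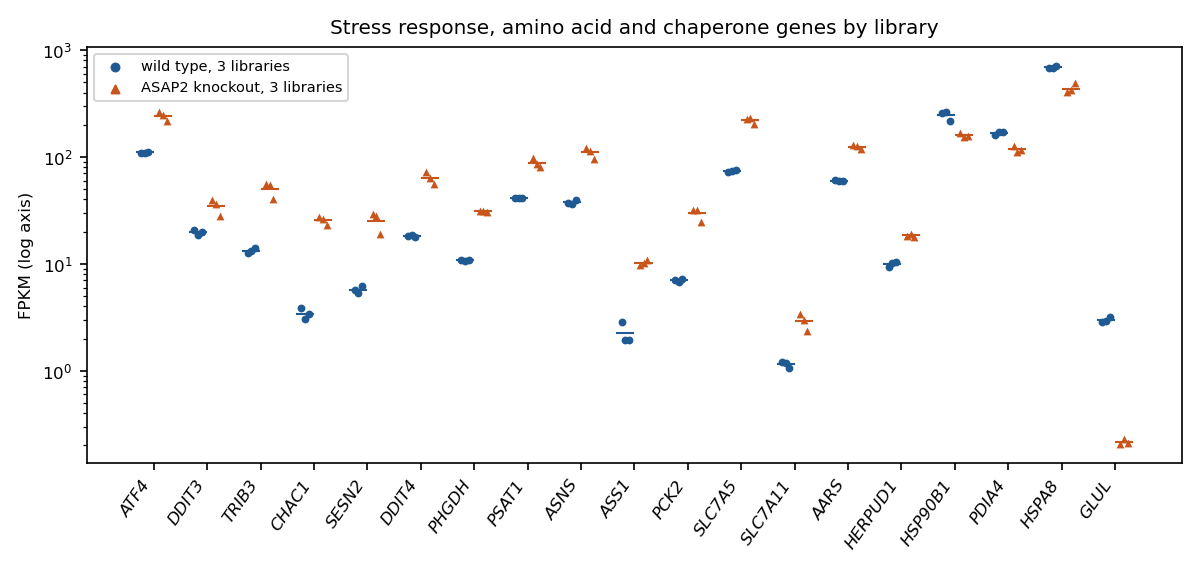
FPKM on a log axis of 19 genes in each Panc1 library, circles for the 3 wild-type and triangles for the 3 knockout libraries, with a line at each mean. From ATF4 to HERPUD1 the knockout values lie above the wild-type ones, and for HSP90B1, PDIA4, HSPA8 and GLUL they lie below.

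Contractile genes of the smooth muscle type were higher. Of 33 tested, 23 rose and 4 fell, 3 and 1 of these at least 2-fold, with a median of 0.34 (0.37 after the GC and length correction, 0.30 without chromosomes 2, 6 and 7). Log2 changes in the list ran from -1.25 to 3.72, and its highest member is not described here. CNN1, calponin of smooth muscle, read 2.14, 2.16 and 1.68 FPKM in the wild-type and 14.8, 14.1 and 13.6 FPKM in the knockout libraries (log2 change 2.34 ± 0.07, adjusted p = 1.0e-10; chromosome 19, 11649582 to 11661138 on the forward strand). MYL9, a regulatory light chain of myosin II, read 76, 83.1 and 82.2 FPKM in the wild-type and 298, 329.9 and 341 FPKM in the knockout libraries (log2 change 1.99 ± 0.1, adjusted p = 1.0e-08). The LIM protein gene CSRP1 rose from 56.8 ± 1.45 to 105 ± 1.73 FPKM (log2 change 0.88 ± 0.04, adjusted p = 2.8e-09). The transcription factor gene SRF itself rose from 34.7 ± 1.31 to 54.3 ± 2.98 FPKM (log2 change 0.63). In each of these genes every knockout library was above every wild-type one. TAGLN2 and TPM2, for abundant actin-binding proteins, rose by 0.47 and 0.53. CALD1, caldesmon, went the other way with 13.1, 12.3 and 11.8 FPKM in the wild-type and 5.15, 4.27 and 4.55 FPKM in the knockout libraries (log2 change -1.25 ± 0.1, adjusted p = 5.1e-07), and it lies on chromosome 7, which was lower as a whole.

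CNN2, a second calponin, rose from 106 ± 6.39 to 169.8 ± 5.41 FPKM (log2 change 0.67 ± 0.05, adjusted p = 4.9e-07). Its promoter held 1 match to the CArG box, the element of serum response factor, shown in capitals in the 100 bases before the start (RefSeq, GRCh38.p14) because it is a contractile gene that rose and holds the box 89 bases before its start.
CNN2 chr19:1026508-1026607, forward strand: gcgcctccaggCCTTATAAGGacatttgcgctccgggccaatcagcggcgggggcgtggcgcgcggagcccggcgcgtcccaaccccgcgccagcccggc
The box was found on either strand within 250 bases before the start in 48 of 6770 genes (0.709%) and in 3 of 12 contractile genes with a single start.

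Actin regulators were divided. Over actin assembly and turnover 25 rose and 17 fell of 72 tested (median 0.01). ACTG1, cytoplasmic gamma-actin, read 2076, 2096 and 2204 FPKM in the wild-type and 3685, 3839.6 and 3737 FPKM in the knockout libraries (log2 change 0.82 ± 0.04, adjusted p = 8.8e-09), a level made uncertain by processed copies, whereas TMSB4X, thymosin beta-4, which holds actin monomers, fell from 908 ± 48 to 469 ± 16.8 FPKM (log2 change -0.95 ± 0.04, adjusted p = 4.0e-09). Its paralog TMSB10 rose from 1119.6 to 1722 FPKM (log2 change 0.62). The 2 thymosins thus moved in opposite directions. ROCK2, a kinase that drives myosin contraction, fell from 9.71 to 3.99 FPKM (log2 change -1.1). RND3, an atypical small GTPase that counters actomyosin contraction, read 28.4, 27.7 and 26.1 FPKM in the wild-type and 10.8, 8.71 and 8.94 FPKM in the knockout libraries (log2 change -1.44 ± 0.07, adjusted p = 8.2e-09). RHOA rose from 186 to 218 FPKM (log2 change 0.23). Of the focal adhesion adaptors and kinases 25 rose and 7 fell of 44 tested (median 0.23, 0.25 corrected, range -0.98 to 3.72). ZYX, zyxin of focal adhesions and stress fibres, rose from 135 ± 8.93 to 222 ± 8.92 FPKM (log2 change 0.71 ± 0.05, adjusted p = 1.9e-07). VCL, vinculin, rose from 186 to 255 FPKM, and the tensin genes TNS4, TNS3 and TNS2 fell by 0.98, 0.75 and 0.65. Invadopodium and podosome genes, for protrusions that digest matrix, had 6 higher and 6 lower of 24 (median -0.14). Cortactin (CTTN) fell from 149.9 to 106 FPKM (log2 change -0.5) and fascin (FSCN1) rose from 231 to 344 FPKM (log2 change 0.57).

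Matrix genes changed in both directions. Among matrix glycoproteins and proteoglycans 15 rose and 5 fell of 25 tested, 6 up and 2 down at least 2-fold (median 0.42, 0.38 corrected). CCN2, connective tissue growth factor, read 23.8, 29.5 and 30.6 FPKM in the wild-type and 120.3, 112 and 93 FPKM in the knockout libraries (log2 change 1.92 ± 0.1, adjusted p = 8.9e-09; chromosome 6, 132269316 to 132272512 on the reverse strand). CCN5 of the same family read 0.969, 1.02 and 1.09 FPKM in the wild-type and 4.29, 3.84 and 3.54 FPKM in the knockout libraries (log2 change 1.27 ± 0.06, adjusted p = 3.9e-09). THBS1, thrombospondin, rose from 2.72 ± 0.242 to 7.43 ± 0.55 FPKM (log2 change 1.18 ± 0.06, adjusted p = 1.3e-08). In each of these 3 genes the knockout libraries were all higher. HAPLN3, which links hyaluronan to proteoglycans, rose from 5.46 to 18.5 FPKM (log2 change 1.59). EFEMP1, a fibulin, rose from 13.3 to 30.8 FPKM (log2 change 1.15). SPOCK1, testican, read 10.4, 10.6 and 9.72 FPKM in the wild-type and 2.59, 2.43 and 2.72 FPKM in the knockout libraries and fell (log2 change -1.65 ± 0.05, adjusted p = 1.7e-10), as did SRPX, from 8.97 to 3.31 FPKM.

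Of the collagen chains 7 rose and 2 fell of 12 tested (median 0.16), 3 up and 1 down at least 2-fold. Log2 changes of the chains ran from -1.25 to 3.57, and the highest chain is not described here. Besides the fibrillar chains of collagens I and V, COL6A2 of the beaded filaments read 4.63, 3.98 and 4.35 FPKM in the wild-type and 9.36, 9.94 and 10.7 FPKM in the knockout libraries (log2 change 1.05 ± 0.07, adjusted p = 1.4e-07). COL7A1, the anchoring fibril collagen, rose from 7.0 to 11.9 FPKM (log2 change 0.69). Chains also fell: COL22A1, of tissue junctions, fell from 2.44 to 0.445 FPKM (log2 change -1.25). COL18A1, the most abundant chain, rose from 259 to 289.7 FPKM (log2 change 0.16), a call lost after the GC and length correction. In the basement membrane list 3 rose and 5 fell of 12 (median -0.08), with large changes in single members. NID2, nidogen that links laminin to collagen IV, read 3.5, 3.8 and 3.29 FPKM in the wild-type and 0.049, 0.017 and 0.062 FPKM in the knockout libraries (log2 change -2.12 ± 0.05, adjusted p = 2.5e-11; chromosome 14, 52471527 to 52535777 on the reverse strand). NTN4, a laminin-like netrin, read 6.16, 6.62 and 6.33 FPKM in the wild-type and 1.29, 1.17 and 0.959 FPKM in the knockout libraries (log2 change -1.79 ± 0.06, adjusted p = 2.5e-10). Neither gene's groups overlapped. The laminin chain gene LAMB3 fell from 4.56 to 2.26 FPKM. LAMC3 read 1.11, 1.08 and 1.08 FPKM in the wild-type and 4.59, 4.57 and 4.63 FPKM in the knockout libraries and rose (log2 change 1.42 ± 0.06, adjusted p = 1.6e-09).

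The CCN2 promoter is printed as the one with the most matches in the pathway list to GGAATG, the core of the site that TEAD factors, the partners of YAP and TAZ, bind. In capitals are 3 matches in the 180 bases before the start, which begin 169, 104 and 95 bases before it (RefSeq, GRCh38.p14; the sequence runs along the gene, which lies on the reverse strand).
CCN2 chr6:131951373-131951552, reverse strand: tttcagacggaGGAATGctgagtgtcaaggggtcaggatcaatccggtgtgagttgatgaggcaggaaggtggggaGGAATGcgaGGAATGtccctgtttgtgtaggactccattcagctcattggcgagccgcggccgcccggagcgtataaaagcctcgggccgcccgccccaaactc
Within 250 bases before the start, on either strand, the letters were found in 643 of 6770 genes (9.5%) and in 8 of 22 YAP and TAZ pathway genes, 4 of which were among the 9 that rose. In the whole pathway list 18 rose and 8 fell of 39 tested (median 0.08). NUAK2, a kinase that promotes YAP activity, read 2.7, 2.72 and 2.76 FPKM in the wild-type and 13.1, 13.3 and 12 FPKM in the knockout libraries (log2 change 1.89 ± 0.06, adjusted p = 1.8e-10). The Hippo pathway scaffold gene WWC1 rose from 5.12 ± 0.245 to 13.9 ± 0.524 FPKM (log2 change 1.29 ± 0.05, adjusted p = 1.6e-09).

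**Figure D3:**
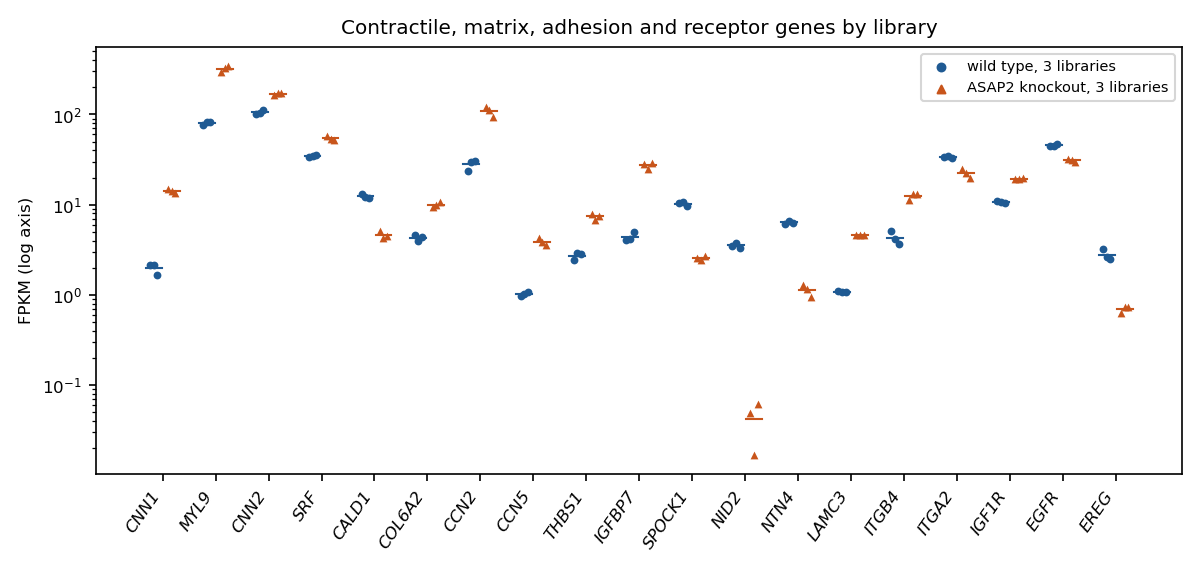
FPKM on a log axis of 19 contractile, matrix, adhesion and receptor genes in each Panc1 library, circles for wild-type and triangles for knockout libraries, with a line at each mean. NID2 drops from a mean of 3.53 to 0.0427 FPKM, and the values of each gene separate by group.

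Adhesion receptors and junction genes shifted in part. Of the integrin subunits 6 rose and 3 fell of 12 tested (median 0.14, 0.35 corrected): the laminin-binding ITGA3 rose from 109 ± 1.38 to 175 ± 3.85 FPKM (log2 change 0.68 ± 0.05, adjusted p = 1.3e-07). The fibronectin-binding ITGA5 rose from 22.8 to 36.7 FPKM (log2 change 0.66). The collagen-binding ITGA2 fell from 33.8 to 22.5 FPKM (log2 change -0.57). ITGB1, their shared partner, read 259 FPKM on average in wild-type and 242 FPKM in knockout cells without passing the test. Among tight junction and polarity genes 12 rose and 4 fell of 26 tested (median -0.02, 0.24 corrected). JAM3, a junctional adhesion molecule, read 5.08, 4.61 and 5.03 FPKM in the wild-type and 13.7, 14.1 and 15.5 FPKM in the knockout libraries (log2 change 1.39 ± 0.07, adjusted p = 7.3e-09). Its relative F11R rose from 5.3 to 12.5 FPKM (log2 change 1.1). PRKCZ, the atypical kinase of the polarity complex, rose from 8.29 to 19.9 FPKM (log2 change 1.17). These 3 genes were higher in all knockout libraries. Among members that fell were the claudin genes CLDN4, on chromosome 7, from 41.1 to 25.8 FPKM, and CLDN7, on chromosome 17, from 4.0 to 1.61 FPKM. Of the cadherins and catenins 7 rose and 3 fell of 15 tested: N-cadherin (CDH2) read 15.1, 15.8 and 16.2 FPKM in the wild-type and 33.3, 32.5 and 32.6 FPKM in the knockout libraries (log2 change 1.02 ± 0.05, adjusted p = 4.6e-09). CDH23 rose from 0.175 to 2.0 FPKM (log2 change 1.35). Keratins were split, with 5 higher and 2 lower of 9: KRT8 and KRT18, which pair in simple epithelium, rose from 372 to 514 FPKM and from 309.9 to 404 FPKM, while KRT19 read 541, 539 and 543 FPKM in the wild-type and 229, 258 and 276 FPKM in the knockout libraries (log2 change -1.09 ± 0.07, adjusted p = 1.1e-07). The metastasis-associated calcium protein gene S100A4, often listed with mesenchymal genes, fell from 74.7 ± 6.3 to 25.9 ± 1.79 FPKM (log2 change -1.49 ± 0.11, adjusted p = 1.5e-07).

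Growth factor receptors and their ligands moved in both directions. In the EGFR family and its ligands 3 rose and 5 fell of 9 tested (median -0.35, -0.41 corrected). The median of so small a list depended on its members: it was -0.15 without chromosomes 2 and 7 and 0.44 over the 4 members of at least 5 FPKM. EGFR, on chromosome 7, read 44.7, 45 and 47.2 FPKM in the wild-type and 32.5, 31.1 and 29.4 FPKM in the knockout libraries (log2 change -0.54 ± 0.06, adjusted p = 4.6e-06). Epiregulin (EREG), one of its ligands, read 3.24, 2.61 and 2.48 FPKM in the wild-type and 0.625, 0.734 and 0.727 FPKM in the knockout libraries (log2 change -1.15 ± 0.08, adjusted p = 9.1e-08). Neuregulin (NRG1) fell from 5.69 to 3.3 FPKM, while the ligand gene HBEGF and the feedback inhibitor gene ERRFI1 rose by 0.55 and 0.57. Among the other receptor tyrosine kinases and ligands 11 rose and 4 fell of 17 tested (median 0.26, 0.36 corrected). AXL, a receptor of mesenchymal carcinoma cells, rose from 103 ± 3.26 to 144 ± 4.21 FPKM (log2 change 0.48 ± 0.07, adjusted p = 3.9e-05). Its ligand gene GAS6 rose from 7.95 ± 0.752 to 15.3 ± 1.2 FPKM (log2 change 0.86 ± 0.08, adjusted p = 1.3e-06). Receptor and ligand of this pair were thus both higher. PDGFB and PDGFC, ligands of the PDGF receptors, rose from 10.9 to 18 FPKM and from 6.83 to 10.8 FPKM, against the fall of the receptor gene PDGFRA from 11.2 to 1.52 FPKM. CSF1, the macrophage growth factor, read 40.4, 39.1 and 38.1 FPKM in the wild-type and 17.4, 17.2 and 17 FPKM in the knockout libraries (log2 change -1.14 ± 0.12, adjusted p = 4.3e-06). In the Wnt pathway 17 rose and 10 fell of 42 tested (median -0.02). WNT5A fell from 2.97 ± 0.233 to 0.526 ± 0.094 FPKM (log2 change -1.38 ± 0.06, adjusted p = 2.2e-09). Its close relative WNT5B rose from 8.96 to 16.3 FPKM (log2 change 0.8). TNIK, a kinase of the nuclear Wnt complex, read 0.648, 0.604 and 0.646 FPKM in the wild-type and 4.97, 5.0 and 5.07 FPKM in the knockout libraries (log2 change 1.88 ± 0.05, adjusted p = 4.4e-11). Among semaphorins and guidance genes 10 rose and 5 fell of 21 tested (median 0.16), with netrin-1 (NTN1) up from 1.85 ± 0.14 to 7.87 ± 0.312 FPKM (log2 change 1.64 ± 0.06, adjusted p = 3.5e-10) and SEMA6B up from 4.62 to 14.8 FPKM (log2 change 1.49).

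In each of the 5 lists of cell division genes given here, more members fell than rose. Of the kinetochore, checkpoint and mitotic kinase genes 3 rose and 70 fell of 94 tested (median -0.53). After the GC and length correction, with calls in 1 scaling alone, 74 were lower and the median was -0.39. Together they took 1.21 to 1.22% of the summed FPKM in wild-type and 0.875 to 0.89% in knockout libraries. CDK1, the kinase that starts mitosis, read 46.5, 48.4 and 46.9 FPKM in the wild-type and 26.3, 25.1 and 23 FPKM in the knockout libraries (log2 change -0.9 ± 0.05, adjusted p = 3.9e-08). Cyclin B1 (CCNB1) read 91.7, 87.6 and 90.6 FPKM in the wild-type and 55.3, 51.4 and 53 FPKM in the knockout libraries (log2 change -0.75 ± 0.05, adjusted p = 7.5e-08). The checkpoint kinase gene TTK fell from 25.6 ± 2.7 to 12.1 ± 0.956 FPKM (log2 change -1.01 ± 0.11, adjusted p = 7.4e-06). CENPK, of the inner kinetochore, fell from 12.3 to 5.51 FPKM (log2 change -1.03). After the GC and length correction the log2 change was -0.51 for both CDK1 and CENPK, -0.50 for CCNB1 and -0.76 for TTK. The groups did not overlap for any of these kinase, cyclin and kinetochore genes. MKI67, the proliferation marker, fell from 66.1 to 44.8 FPKM (log2 change -0.54). TPX2, a spindle assembly factor, read 213 FPKM on average in wild-type and 209 FPKM in knockout cells and did not pass the test, and MYBL2, a transcription factor of these genes, and MAD2L2 rose by 0.49 each.

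Among condensin, cohesin and SMC genes, whose ring complexes fold and hold chromosomes, 1 rose and 19 fell of 30 tested (median -0.48, -0.25 corrected). SMC6, on chromosome 2, the chromosome of ASAP2, fell from 9.72 to 3.79 FPKM (log2 change -1.16 ± 0.16, adjusted p = 4.2e-05). SMC2 fell from 13.8 to 7.07 FPKM (log2 change -0.86) and NCAPG2, on chromosome 7, fell from 24.9 to 13.5 FPKM. For centrosome and centriole genes 2 rose and 31 fell of 55 tested (median -0.38, -0.19 corrected), and PLK4, the kinase that starts centriole copying, fell from 8.83 to 4.73 FPKM (log2 change -0.78). For the DNA replication machinery 3 rose and 34 fell of 63 tested (median -0.35, -0.22 corrected): DBF4, which activates the origin kinase, read 13.6, 13.6 and 12.2 FPKM in the wild-type and 6.96, 6.25 and 5.55 FPKM in the knockout libraries (log2 change -0.96 ± 0.08, adjusted p = 7.1e-07). The sliding clamp gene PCNA fell from 127 ± 1.5 to 88.8 ± 4.71 FPKM (log2 change -0.51 ± 0.07, adjusted p = 6.5e-05). CLSPN, of the replication checkpoint, fell from 10.7 to 5.55 FPKM. In homologous recombination and Fanconi genes 2 rose and 31 fell of 56 tested (median -0.34, -0.22 corrected), with a log2 change of -1.15 for GEN1, a resolvase on chromosome 2, of -1.03 for RAD50 and of -0.70 for BRCA1. Median GC content was 43.3% in the mitosis list, 40.7% in the condensin list and 45.9% in the replication list, against 48.5% for all genes with a value, and the corrected medians above are the values that bear on it.

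The promoters of 4 mitotic genes are printed to show the cell cycle genes homology region (CHR), TTTGAA, which lies close to the start of genes that are repressed outside division. Each stretch is the 60 bases before the start, with the matches in capitals (RefSeq, GRCh38.p14).
HMMR chr5:163460572-163460631, forward strand: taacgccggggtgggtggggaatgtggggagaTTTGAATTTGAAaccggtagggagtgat
BUB1B chr15:40161009-40161068, forward strand: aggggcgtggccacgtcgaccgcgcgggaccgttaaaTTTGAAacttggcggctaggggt
CCNB2 chr15:59105086-59105145, forward strand: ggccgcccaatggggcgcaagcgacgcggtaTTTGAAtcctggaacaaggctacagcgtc
CDCA8 chr1:37692456-37692515, forward strand: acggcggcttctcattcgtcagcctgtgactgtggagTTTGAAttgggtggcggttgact
The matches began 28 and 22 bases before the start in HMMR, 23 in BUB1B, 29 in CCNB2 and 23 in CDCA8, all along the gene's strand. Within 250 bases before the start, on either strand, the letters were found in 523 of 6770 genes (7.73%), in 24 of 64 genes of the mitosis list with a single start (37.5%) and in 21 of its 52 members that fell. CCNF, CDC20 and PLK1 of this list also held them and were not called, with log2 changes of -0.15, -0.07 and -0.14. The printed genes fell to different degrees: HMMR, a spindle protein and hyaluronan receptor, read 22.6, 24.3 and 19.8 FPKM in the wild-type and 9.63, 9.21 and 7.86 FPKM in the knockout libraries (log2 change -1.23 ± 0.13, adjusted p = 3.7e-06). BUB1B, of the spindle checkpoint, fell from 27.9 ± 0.649 to 17.4 ± 0.7 FPKM (log2 change -0.65 ± 0.05, adjusted p = 1.5e-07). Cyclin B2 (CCNB2) fell from 64.1 ± 0.154 to 46.6 ± 1.47 FPKM (log2 change -0.45 ± 0.05, adjusted p = 1.0e-05). CDCA8, of the chromosomal passenger complex, fell from 58.2 to 43.5 FPKM (log2 change -0.41).

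Cell cycle regulators outside these complexes were mixed. CDKN1A, the inhibitor p21, read 22, 23.5 and 24.3 FPKM in the wild-type and 60.4, 63.4 and 66.1 FPKM in the knockout libraries (log2 change 1.41 ± 0.09, adjusted p = 1.1e-07; chromosome 6, 36644237 to 36655114 on the forward strand). Cyclin D1 (CCND1) rose from 86 to 109 FPKM (log2 change 0.34). Cyclin E2 (CCNE2) fell from 7.73 to 3.63 FPKM (log2 change -0.92, -0.55 corrected). Over all cyclins, CDKs and their inhibitors 10 rose and 23 fell of 53 tested (median -0.21), and over p53 pathway genes 15 rose and 8 fell of 35 tested (median 0.03). Panc1 is known to carry mutant p53. Replication-dependent histone genes moved upward: 13 rose and 1 fell of 21 tested (median 0.48, and 0.06 over all 66 listed members, most of them below 1 FPKM). Of the 18 with a known position 16 lie on chromosomes 2, 6 or 7. The other 5 of the 21, which include members without a known position, had a median of 0.54. HIST1H1C, a linker histone, read 18.5, 16.4 and 15.2 FPKM in the wild-type and 34.1, 37.6 and 44.8 FPKM in the knockout libraries (log2 change 1.16 ± 0.18, adjusted p = 9.8e-05). HIST2H2BE read 3.24, 3.04 and 2.96 FPKM in the wild-type and 6.12, 6.83 and 6.41 FPKM in the knockout libraries (log2 change 0.87 ± 0.07, adjusted p = 4.0e-07). Many replication-dependent histone genes are near-identical copies, and mRNAs of the family lack poly(A) tails for the most part. Levels of single members thus depend on read assignment and library type, which the sources do not state. The median in MiaPaCa2 was 0.50.

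Gene lists for making protein and handling RNA did not move as one. Of the cytosolic ribosomal proteins 71 rose and 2 fell of 85 tested (median 0.32, 0.41 corrected and 0.14 under quantile normalization), and their share of the summed FPKM was 12.5% in each of the wild-type and 15.1 to 15.4% in knockout libraries. RPS7, on chromosome 2, fell from 372 to 236 FPKM (log2 change -0.66). Processed copies make single levels of these genes uncertain. Mitochondrial ribosomal proteins stayed near the background, with 14 higher and 20 lower of 84 (median -0.13). In ribosome biogenesis 11 rose and 43 fell of 106 tested (median -0.22). Among translation factors 21 rose and 22 fell of 71 tested (median -0.09, 0.07 corrected). NMD3, the export adaptor of the large subunit, fell from 39.2 ± 1.09 to 16.8 ± 1.28 FPKM (log2 change -1.18 ± 0.07, adjusted p = 4.3e-08). SR proteins and hnRNPs, the RNA-binding proteins that steer splicing, had 6 higher and 35 lower of 69 (median -0.27). After the GC and length correction, with calls in 1 scaling alone, 18 were higher and 30 lower (median -0.07). HNRNPA2B1, on chromosome 7, fell by 0.81, and HNRNPA1 read 299 FPKM in both groups. The largest family, 363 ZNF-named zinc finger genes, had 32 higher and 168 lower (median -0.26, -0.09 corrected, median GC content 43.5%), from -1.13 for ZNF92 to 1.02 for ZNF462.

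**Figure D4:**
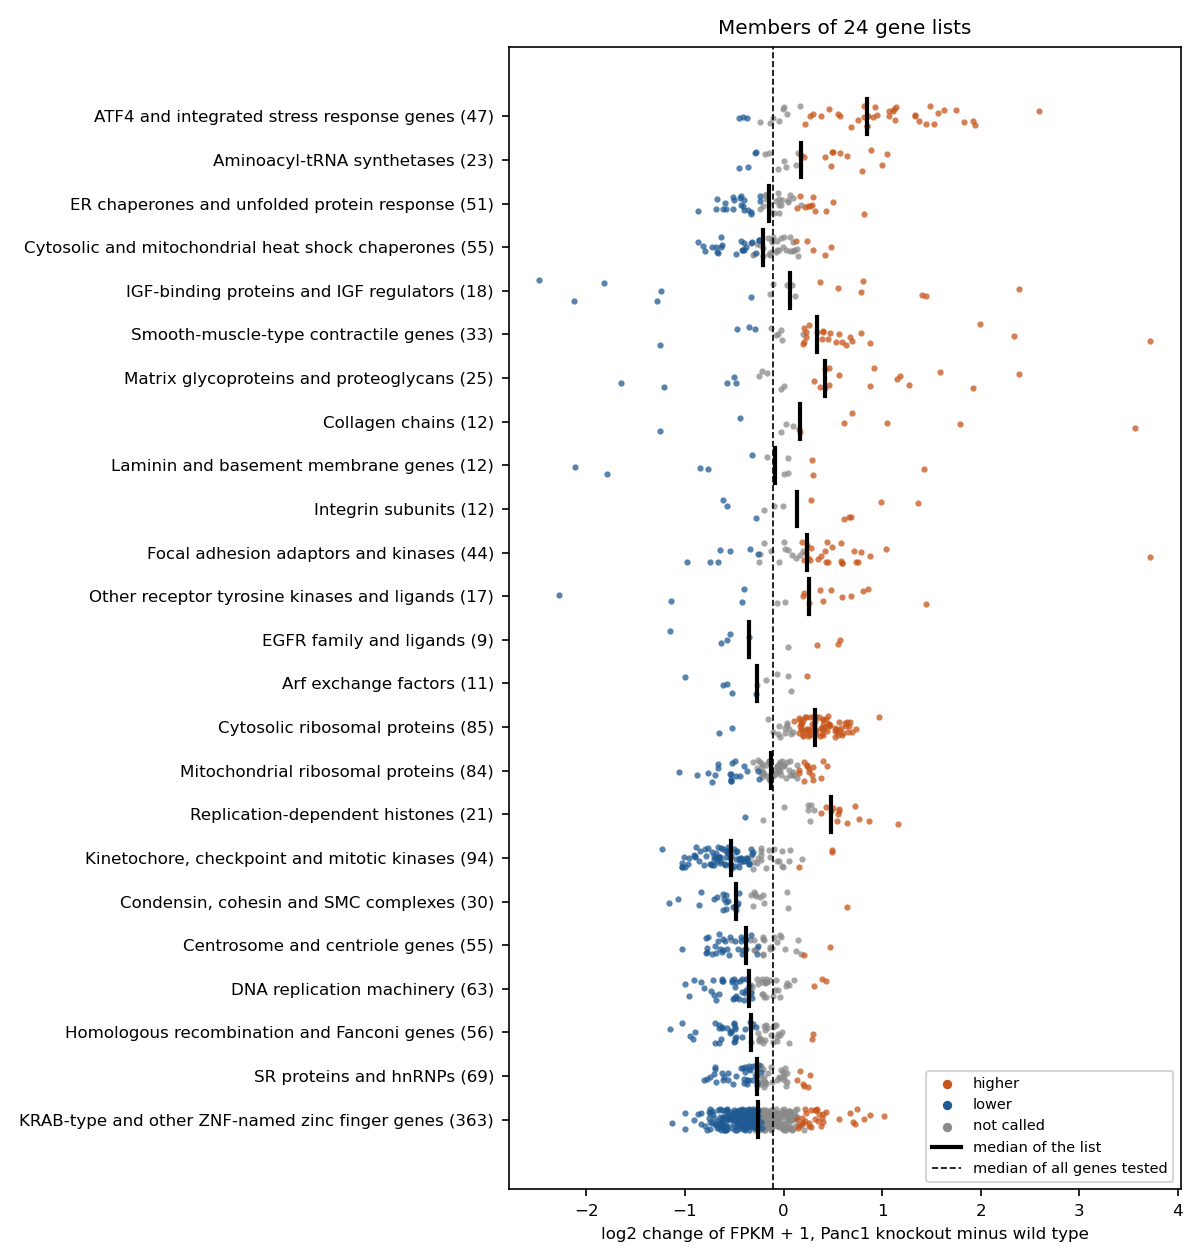
Log2 change of FPKM + 1 (knockout minus wild type) of every tested member of 24 gene lists, number of members in brackets; points are genes, coloured by call, a black bar marks the median of each list and the dashed line the median of all genes (-0.11). The stress response list has its median at 0.85 and the mitosis list at -0.53, and the IGF list reaches from -2.48 to 2.39.

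Immune and inflammatory genes were few and split. Of the interferon-induced genes 13 rose and 7 fell of 31 tested (median 0.11). UBE2L6, an enzyme that attaches the modifier ISG15, rose from 2.01 ± 0.49 to 9.91 ± 0.194 FPKM (log2 change 1.87 ± 0.12, adjusted p = 8.1e-08). IFITM3 rose from 355 ± 13.9 to 505 ± 22.6 FPKM (log2 change 0.51 ± 0.05, adjusted p = 1.8e-06) and its neighbour IFITM2 fell from 54.5 to 33.9 FPKM (log2 change -0.66), with levels of this pair uncertain because of their likeness. In the list of class I presentation 10 rose and 4 fell of 22 tested (median 0.21), but 13 of 22 lie on chromosomes 2, 6 or 7, and the other 9 had 1 higher and 3 lower (median -0.03). The natural killer ligand gene ULBP1 read 0.839, 0.56 and 0.596 FPKM in the wild-type and 4.12, 4.18 and 3.18 FPKM in the knockout libraries (log2 change 1.53 ± 0.12, adjusted p = 3.9e-07). B2M, the shared light chain on chromosome 15, fell from 182 to 147 FPKM (log2 change -0.31 ± 0.08, adjusted p = 0.00315). That call was lost in 10 of 19 settings, the replicate block among them, and the value was 0.03 after the GC and length correction. Secreted signals and their receptors went both ways. The cytokine gene IL32 rose from 9.33 to 22.1 FPKM (log2 change 1.16). The receptor gene IL6R fell from 4.33 to 1.58 FPKM (log2 change -1.05). Of the chemokines, their receptors and chemokine-like CMTM genes 6 rose and 2 fell of 11 tested (median 0.12). Those that fell were the monocyte chemokine gene CCL2, from 18.7 to 1.58 FPKM (log2 change -2.98), and the neutrophil chemokine gene CXCL1, from 2.71 to 0.737 FPKM (log2 change -1.1). CXCL16, a transmembrane chemokine, rose from 1.14 to 3.02 FPKM (log2 change 0.91) and CMTM8 rose from 4.57 to 7.78 FPKM (log2 change 0.66).

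Lipid, retinoid and transcription factor families held large single changes without a shift of the whole list. Of single retinoid genes, ALDH1A3, which makes retinoic acid, read 20.8, 22.4 and 21.6 FPKM in the wild-type and 9.32, 8.7 and 8.74 FPKM in the knockout libraries (log2 change -1.19 ± 0.06, adjusted p = 9.2e-09). RDH10, of the step before it, fell from 3.65 to 1.44 FPKM (log2 change -0.93). The carrier gene CRABP2 fell from 107 to 58 FPKM. The whole list of aldehyde dehydrogenases, retinoid genes and cytochromes P450 had 8 higher and 12 lower of 35 (median -0.09). Of sphingolipid and ganglioside enzymes 9 rose and 12 fell of 32 tested (median -0.18). CERS4, a ceramide synthase, rose from 0.929 ± 0.0251 to 4.51 ± 0.522 FPKM (log2 change 1.51 ± 0.09, adjusted p = 2.4e-08). B3GALNT1, the globoside synthase, fell from 22.9 ± 0.237 to 9.13 ± 0.415 FPKM (log2 change -1.24 ± 0.05, adjusted p = 1.2e-09). Among developmental factors, GATA5, of endoderm and heart, fell from 7.12 ± 0.0892 to 2.07 ± 0.306 FPKM (log2 change -1.41 ± 0.07, adjusted p = 4.5e-09). SOX21 fell from 14.7 to 6.75 FPKM (log2 change -1.02) and SIX2 fell from 6.02 to 2.55 FPKM (log2 change -1.01). Of the HOX genes 8 rose and 7 fell of 26 tested (median 0.00), with HOXB9 and HOXB13 on chromosome 17 up by 0.80 and 0.69, HOXA3 on chromosome 7 at -0.93 and HOXC11 and HOXC13 on chromosome 12 at -0.65 and -0.63. In the lysosome list 27 rose and 11 fell of 61 tested (median 0.12), with acid glucosidase (GAA) up from 2.3 to 6.14 FPKM (log2 change 1.12). In the autophagy list 19 rose and 8 fell of 46 tested (median 0.08), with the starting kinase gene ULK1 up from 13 ± 0.583 to 30.7 ± 4.64 FPKM (log2 change 1.16 ± 0.09, adjusted p = 2.8e-07). For tubulins 7 rose and 0 fell of 15, but 5 of the 15 lie on chromosomes 2, 6 or 7, and 2 of the other 10 rose (median 0.02). Of the 7 that rose 2 did so at least 2-fold, and log2 changes of the 15 ran from -0.20 to 2.91. The abundant TUBA1B read 873 FPKM on average in wild-type and 895 FPKM in knockout cells, TUBA1C read 394 FPKM on average in wild-type and 386 FPKM in knockout cells, and neither passed the test; read assignment between such similar genes is uncertain.

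Many housekeeping families stayed close to the all-gene median of -0.11. List medians were -0.07 for the proteasome, -0.13 for respiratory complex I, -0.19 for ATP synthase, -0.10 for glycolysis, -0.12 for Rab GTPases, -0.10 for the COPI and COPII coats that Arf proteins and their relatives recruit, -0.11 for clathrin and its adaptors, -0.02 for retromer and ESCRT, -0.13 for the cullin ligases and -0.12 for deubiquitinases. Among the exceptions within them, RAB27B, of vesicle secretion, fell from 3.71 ± 0.653 to 0.817 ± 0.189 FPKM (log2 change -1.37 ± 0.14, adjusted p = 3.4e-06). CYCS, cytochrome c on chromosome 7, fell from 32.3 to 13.8 FPKM (log2 change -1.17).

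Some genes went from near absence to clear expression or the reverse. With a mean below 0.5 FPKM in wild-type and at least 2 FPKM in knockout libraries there were 21 genes, of which 20 were called, and with the reverse 12, all called. The highest of them in knockout cells was DSP, desmoplakin of the desmosome plaque, with 0.314, 0.242 and 0.242 FPKM in the wild-type and 7.63, 7.61 and 7.16 FPKM in the knockout libraries (log2 change 2.74 ± 0.08, adjusted p = 1.0e-10). H2AFY2, the histone variant macroH2A2, read 0.151, 0.043 and 0.109 FPKM in the wild-type and 3.63, 3.91 and 3.58 FPKM in the knockout libraries (log2 change 2.1 ± 0.13, adjusted p = 7.1e-08; chromosome 10, 71812300 to 71872038 on the forward strand). SLC22A23, an orphan transporter, read 0.438, 0.391 and 0.375 FPKM in the wild-type and 4.08, 3.61 and 4.29 FPKM in the knockout libraries (log2 change 1.83 ± 0.1, adjusted p = 1.7e-08). SYT17, of the synaptotagmin family, rose from 0.382 to 3.09 FPKM (log2 change 1.56). The adjoining FAM89A and MIR1182, which share a locus, rose from 0.41 to 3.87 FPKM and from 0.313 to 3.3 FPKM. The noncoding RNA gene SENCR rose from 0.472 to 2.59 FPKM (log2 change 1.29), and the uncharacterised LOC101927699 and LOC102724593 rose from 0.418 to 2.99 FPKM and from 0.395 to 2.61 FPKM. RMRP, a short structural RNA, is the gene not called, since only knockout replicate 2 read high: 0.344, 0.168 and 0.0 FPKM in the wild-type and 0.0, 15 and 0.172 FPKM in the knockout libraries. Of the genes that were lost, PALMD, palmdelphin, read 4.72, 4.83 and 4.81 FPKM in the wild-type and 0.397, 0.359 and 0.375 FPKM in the knockout libraries (log2 change -2.07 ± 0.05, adjusted p = 8.5e-12). PPP2R2B, a regulatory subunit of phosphatase 2A, fell from 3.42 ± 0.21 to 0.256 ± 0.149 FPKM (log2 change -1.82 ± 0.07, adjusted p = 1.4e-09). SLC16A14, a monocarboxylate transporter family member, fell from 2.98 to 0.398 FPKM (log2 change -1.51), and MIR548AA1, a short locus whose level is uncertain, from 2.56 to 0.215 FPKM. SHISA2, which holds Wnt and FGF receptors in the ER, fell from 2.53 ± 0.148 to 0.0913 ± 0.0237 FPKM (log2 change -1.69). PTGER2, a prostaglandin E2 receptor, fell from 2.72 ± 0.194 to 0.3 ± 0.0627 FPKM (log2 change -1.52). MYRIP, which links Rab27 to myosin, fell from 2.37 ± 0.152 to 0.088 ± 0.038 FPKM (log2 change -1.63).

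The changes were set beside those of the same knockout in MiaPaCa2, which shares no library with Panc1. The difference between the lines passed the test with the same sign in both scalings for 5874 genes (46.9%). Of the stress response list 29 of 47 members differed, and its median in MiaPaCa2 was 0.17: DDIT4 rose by 1.75 in Panc1 and read 1.25 in MiaPaCa2 with no difference called (difference between the lines 0.50, adjusted p = 0.0641), while SLC7A5 read -0.03 there (difference between the lines 1.60, adjusted p = 4.9e-08). For contractile genes 25 of 33 differed (MiaPaCa2 median -0.03), for matrix glycoproteins 15 of 25 (0.01), for focal adhesion genes 31 of 44 (-0.07) and for mitotic genes 57 of 94 (-0.17). In the other cell division lists, 17 of 63 replication genes differed (MiaPaCa2 median -0.20) and 16 of 30 condensin, cohesin and SMC genes (-0.11). Centrosome and centriole genes had 26 of 55 (-0.03), and recombination and Fanconi genes 28 of 56 (-0.05). Of the histone genes 5 of 21 differed. The shares that differed in these lists stand against 46.9% of all genes. Of the 25 matrix glycoprotein genes 15 were below 1 FPKM in both MiaPaCa2 groups, where little change could show, and 11 of these were among the 15 that differed; of all 12522 genes 1257 were that low.

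**Figure D5:**
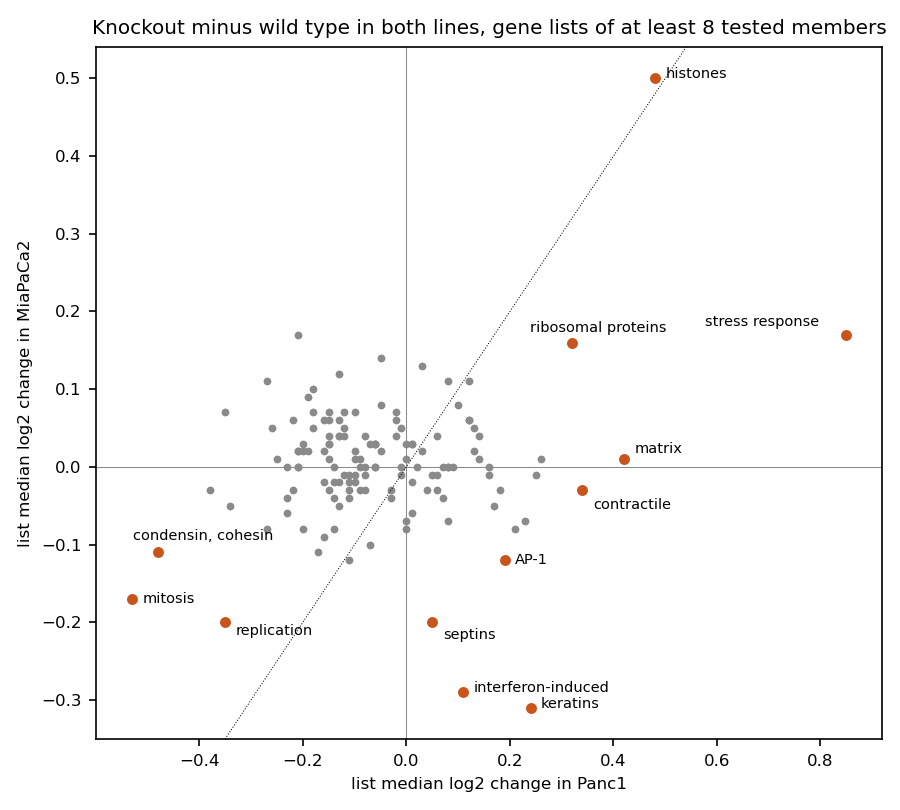
Each point is a gene list with at least 8 tested members, placed by its median log2 change (knockout minus wild type) in Panc1 on the x axis and in MiaPaCa2 on the y axis; the dotted line marks equal values. The stress response list lies at 0.85 and 0.17, histones at 0.48 and 0.50, and contractile and matrix lists lie far along the Panc1 axis with MiaPaCa2 medians of -0.03 and 0.01.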

How the data were processed

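RNA of the 6 Panc1 and 6 MiaPaCa2 libraries was sequenced on a BGISEQ-500, per the labels' protocols. The authors deposited FPKM values by gene symbol, computed by the authors after alignment with TopHat2 2.0.14 and with STAR 2.5.2a to hg19, per the series' design text. Whole reads were not recovered from them, and a gene with no entry in a library was taken as 0. Here log2(FPKM + 1) was fitted with limma 3.58.1 (R 4.3.3; 4 group means, 12 libraries, mean-variance trend, Benjamini-Hochberg adjustment over the 12522 genes), as deposited and after median-ratio scaling, and a call needed an adjusted p below 0.05 with 1 sign in both. The script was checked on simulated data. With 3 libraries against 3, an exact permutation test of 1 gene cannot go below 0.10.

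The 148 gene lists, and the comparison itself, were chosen with earlier results of these data known. Named genes are ASAP2 and the 20 largest increases and decreases among called genes of at least 5 FPKM without overlap. Of each list they are up to 5 called members of at least 2 FPKM without overlap and the 2 most abundant members. The first 10 gained and lost genes complete them. Some of the genes chosen by these rules are not described here. Named after their values were seen were ATF5, BRCA1, BUB1B, CCNB1, CCNB2, CDCA8, CDH23, CDK1, CEBPB, CNN2, DDIT3, DNAJB9, EFEMP1, FAM20C, HTRA1, IGFBP2, ITGA2, JDP2, MAD2L2, MAT2A, MKI67, MTHFD1L, MTHFD2, MYBL2, MYRIP, ODC1, PDGFB, PDGFC, PDIA4, PDIA6, PSAT1, RPS7, SHMT2, SMS, SNORA62, SNORD28, SRF, SRPX, STS, THBS1, TMSB10, TNS2, TNS3, TPM2, VCL, WNT5B, XBP1, ZEB1 and ZYX. GC content, length and hg19 positions come from GENCODE 44 lifted to GRCh37, and promoters from RefSeq (GRCh38.p14). Alternatives changed the scaling, pseudocount, filter, samples and covariates.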

Additional observations from a re-analysis of the deposited data

Results flagged for a closer look

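The knockout change in Panc1 differed from that in MiaPaCa2 for 5874 genes, by the limma test of the difference itself. Of these, 657 were below 1 FPKM in both MiaPaCa2 groups, where the difference restates the change in Panc1. The genes below passed the test of the difference and changed in opposite directions, by at least 1 on the log2 scale in Panc1 and at least 0.5 in MiaPaCa2.

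Some were higher in the Panc1 and lower in the MiaPaCa2 knockout. For H2AFY2, the histone variant macroH2A2, the log2 change was 2.10 in Panc1 and -0.79 in MiaPaCa2, a difference of 2.88. The difference was 2.60 for the ISG15 pathway enzyme gene UBE2L6, 2.32 for the semaphorin gene SEMA6B and 2.11 for the secretory kinase gene FAM20C. It was 1.99 for IGFBP2, which rose by 1.40 in Panc1 and changed by -0.59 in MiaPaCa2. The class I genes HLA-C and HLA-B differed by 1.96 and 1.86, with levels that depend on how reads of these similar genes were assigned.

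Others were lower in the Panc1 and higher in the MiaPaCa2 knockout. The steroid sulfatase gene STS changed by -1.13 in Panc1 and 2.06 in MiaPaCa2, a difference of -3.19. The difference was -2.90 for the endothelial lipase gene LIPG, -2.48 for the adenylate kinase gene AK5, -2.23 for the growth factor gene CSF1, -2.13 for the Rab27 effector gene MYRIP and -2.04 for S100A4. It was -1.74 for SNORD28 and -1.53 for SNORA62, small nucleolar RNAs encoded within other genes, whose levels in libraries of this kind are uncertain.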

How the results depend on the processing

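The counts of higher and lower genes depended on the scaling. Deposited values alone gave 2814 higher and 5466 lower genes, median-ratio scaling alone 4117 and 3869, the TPM scale 2234 and 6452, and quantile normalization 3917 and 4266; the double rule gives 2814 and 3869. Correcting for GC content and length gave 3573 and 3805 of 11921 genes. These alternatives each call genes in 1 scaling alone. Genes at least 2-fold lower, 167 in the double rule, numbered 103 under median-ratio scaling alone, 101 under the GC and length correction, 357 with a pseudocount of 0.1 and 102 with a filter of 5 FPKM, where fewer genes were tested. Genes at least 2-fold higher, 195 in the double rule, numbered 321 under quantile normalization, 318 with a pseudocount of 0.1 and 106 with a filter of 5 FPKM. The causes of the other shifts were not tested. Leaving out each Panc1 library in turn gave 2532 to 2641 higher, 3422 to 3731 lower, 192 to 195 at least 2-fold higher, 160 to 194 at least 2-fold lower and 5269 to 5808 genes differing from MiaPaCa2. Same-numbered wild-type and knockout libraries deviated together at correlations of 0.057, 0.04 and 0.111, and differently numbered ones at -0.098 to 0.05. Such small values from 3 libraries per group cannot show whether a number marks a shared culture or batch. With the replicate block the counts were 2805, 3867, 195, 167 and 5840. Without chromosomes 2, 6 and 7, an alternative chosen after seeing the data, 2380 genes were higher and 3235 lower of 10639. With only chromosomes 2 and 7 left out, 177 genes were at least 2-fold higher and 122 at least 2-fold lower of 11223. Genes without a known position stayed in both times. Of 233 genes with a value in the text, 6 turned sign under some setting and were called in it or in the main fit. Under the GC and length correction B2M read 0.03, ITGB1 0.21 and ZEB1 0.26. Under quantile normalization CALR read -0.15, TUBA1B -0.18 and VIM -0.17. Turns of genes called in neither were not counted, such as that of ARF1 from -0.08 to 0.06 under median-ratio scaling. Of the 221 called genes, 6 lost their call under at least 1 of 19 settings, namely ARFGEF2, B2M, COL18A1, CRABP2, DNAJB9 and RHOA; B2M lost it also with the replicate block, with a log2 change of -0.31, and no other called gene of the text did. Leaving out wild-type replicate 2 or knockout replicate 3 ended the call of ARFGEF2 (-0.26 in both), and leaving out any wild-type library or knockout replicate 2 or 3 ended that of B2M (-0.32 to -0.25). Other list medians of at least 0.25 moved by over 1.5 times. With no filter, when members below 1 FPKM enter, the median was 0.01 instead of 0.42 for matrix glycoproteins, 0.21 instead of 0.34 for contractile genes, 0.02 instead of 0.26 for other receptor tyrosine kinases and -0.07 instead of -0.27 for Arf exchange factors. Under median-ratio scaling, which moves the median of all genes to 0.00, it was -0.23 for replication, -0.21 for recombination, -0.15 for ZNF genes and -0.14 for SR proteins and hnRNPs. Of 215 called genes of the text with a GC value, 17 moved that much under the correction, among them HSP90B1 from -0.61 to -0.32, HSPH1 from -0.80 to -0.50, SMC2 from -0.86 to -0.51 and EREG from -1.15 to -0.76; with a pseudocount of 0.1 it was 29 of 221, and under quantile normalization 9, with TMSB10 at 0.16. The depth of the libraries is unknown, so the counting error of genes near 1 FPKM cannot be given.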
